A study of Mus musculus with 12 samples.

Results

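Glucose-handling genes of the mouse egg were followed across 12 oocyte libraries. The list held 4 glucose transporters, 19 genes of glycolysis and lactate dehydrogenase, and 6 genes of the pentose phosphate pathway, which makes 29 of the 24062 genes counted. The genes were taken by name as known enzymes and transporters, and each had a row in the count table. Earlier results of these data were known when the list was made. Of the 29, 19 passed the filter on low counts and 10 did not.

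The 6 libraries of each diet were each prepared from 4 oocytes pooled together. Females of the high-fat group (HFD) ate a modified D12492 feed of high fat and calorie content for 9 weeks, and females of the control group (CD) ate a feed that the labels also call D12492, so what set the control feed apart is uncertain. All females were given the control feed while they were mated with vasectomized males, and oocytes were taken on day 0.5 after mating. The labels name 6 females per diet, give no strain or age, and do not tie the pools to females, so the p-values rest on differences among pools alone, which may in part be technical.

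In glycolysis, glucose enters through transporters of the Slc2a family, is phosphorylated by hexokinase, committed by phosphofructokinase and split into trioses that end as pyruvate, which lactate dehydrogenase interconverts with lactate. The pentose phosphate pathway branches off after hexokinase and supplies NADPH and ribose. The mouse oocyte is known to use glucose poorly and to live on pyruvate that its cumulus cells make, while its pentose phosphate branch is active and its lactate dehydrogenase is unusually abundant.

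The depth, as total gene counts, was 8409491 to 13793598 in HFD libraries and 8556396 to 10477316 in CD libraries. In 4 HFD libraries (replicates 1, 2, 4 and 6) every count was even, whereas 50.8% to 52.1% of the counts above 0 were odd in the other 8. HFD replicate 3 stood apart with 14755 genes detected, against 12229 to 13052 in the other 11 libraries. The 10 oocyte markers checked, among them Gdf9, Bmp15 and Zp3, were all detected, and they summed to between 9648 and 28347 CPM (counts put on the same total per library by way of TMM factors) in every library. Dppa3 made up 47.1% of that sum. The other 9 oocyte markers summed to between 2411 and 3145 CPM in HFD replicates 1 and 2 and CD replicates 2 and 4, and to between 10190 and 20263 CPM in the other 8 libraries. Levels below are on this CPM scale unless named as per length.

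The members spanned several orders of magnitude, and transcripts of Ldhb and Bpgm made up nearly all of them. Together these accounted for 93.3% to 97.3% of the summed CPM of the 29 members in each library. Per kilobase of transcript, the CD mean was 3079 ± 2284 CPM per kb for Ldhb, the heart-type lactate dehydrogenase subunit, and 2129 ± 462 CPM per kb for Bpgm, which makes and breaks 2,3-bisphosphoglycerate (SD, n = 6). Taldo1, the transaldolase of the pentose phosphate pathway, followed at 111 ± 76.3 CPM per kb, and G6pdx, the entry enzyme of that pathway, at 56.1 ± 15.8. Gapdh stood at 22.8 ± 9.64, Aldoa, Slc2a1, Tpi1, Pkm and Pgk1 lay between 6.70 and 9.95, and the other 9 tested members lay between 0.51 and 2.73 CPM per kb. In this order only the step from Bpgm to Taldo1 separated neighbours whose CD pools did not overlap. Ldhb lay above 99.8% and Bpgm above 99.7% of the tested genes on the CD per-length scale, whereas Hk2 lay above 15.8% of them.

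The sequences upstream of the 4 genes on which the results turn are shown because these genes differ so widely in level and in how they vary. Each run is the 250 bases before the RefSeq start site on the gene's own strand, 5′ to 3′, from GRCm38.p6: chr4:119108495-119108744 (plus strand), chr6:34476106-34476355 (plus), chr6:142507958-142508207 (minus) and chr7:141391910-141392159 (plus). GENCODE M21 starts Slc2a1 at 119108711 and Bpgm at 34476207, so the last part of these windows lies inside the GENCODE gene. The marked match of Bpgm and the last CCGCCC of Slc2a1 lie in that part, and the ACGTG match of Slc2a1 spans the GENCODE start. Capitals mark matches, on either strand, to ACGTG, the core that hypoxia-inducible factors bind, and to CCGCCC, the GC box of Sp factors.
Slc2a1: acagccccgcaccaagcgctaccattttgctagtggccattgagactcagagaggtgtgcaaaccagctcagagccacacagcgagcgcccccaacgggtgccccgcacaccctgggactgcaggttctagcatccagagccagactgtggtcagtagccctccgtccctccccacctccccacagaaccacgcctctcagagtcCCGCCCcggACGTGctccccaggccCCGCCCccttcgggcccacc
Bpgm: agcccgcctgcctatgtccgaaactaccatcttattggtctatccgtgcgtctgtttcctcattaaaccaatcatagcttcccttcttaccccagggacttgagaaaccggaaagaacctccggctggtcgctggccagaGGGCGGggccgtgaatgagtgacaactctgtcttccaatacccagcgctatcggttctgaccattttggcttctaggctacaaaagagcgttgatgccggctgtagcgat
Ldhb: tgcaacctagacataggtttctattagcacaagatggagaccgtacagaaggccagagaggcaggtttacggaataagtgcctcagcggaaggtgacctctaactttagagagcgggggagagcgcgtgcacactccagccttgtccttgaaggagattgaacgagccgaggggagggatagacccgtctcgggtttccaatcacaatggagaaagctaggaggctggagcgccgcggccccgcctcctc
Taldo1: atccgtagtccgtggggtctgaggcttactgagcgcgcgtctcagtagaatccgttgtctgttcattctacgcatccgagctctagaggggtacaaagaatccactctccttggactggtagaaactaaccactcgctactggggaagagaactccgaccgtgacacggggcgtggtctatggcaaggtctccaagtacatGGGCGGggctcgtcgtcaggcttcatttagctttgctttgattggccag
The Slc2a1 window held 1 ACGTG and 2 CCGCCC matches, those of Bpgm and Taldo1 held 1 CCGCCC match each, and that of Ldhb held neither. RefSeq windows were found for 27 of the 29 members, 39 windows in all because some genes have several start sites. ACGTG occurred in 10 of these 39 windows, against 16.6% of all 32851 windows of this length, and CCGCCC in 20 of 39, against 32.7%. TATAAA, the TATA box, occurred in 0 of 39, against 12.4% of all windows. A match is a run of letters and not a shown binding site.

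**Figure D1:**
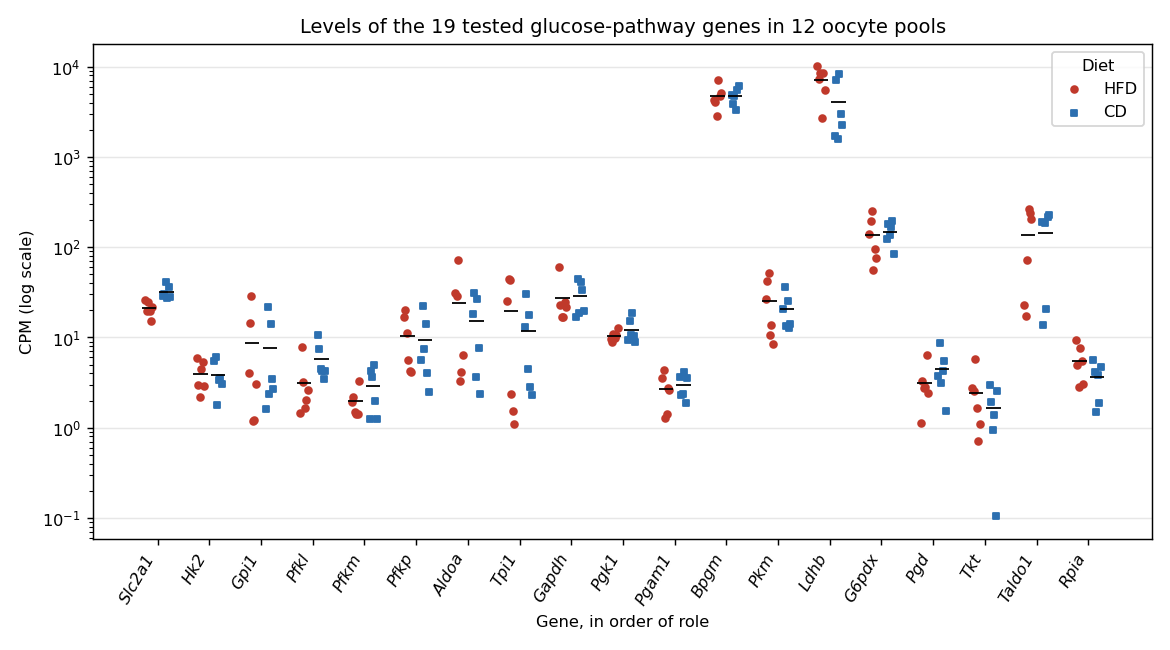
CPM on a log axis of the 19 tested members (x axis, in order of role) in each HFD pool (red circles) and CD pool (blue squares), with black bars for the arithmetic mean of 6 pools. Ldhb and Bpgm lie at 1582 CPM or more in all 12 pools, while the diets overlap in every member except Slc2a1.

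No member passed the threshold in the comparison of HFD with CD, which asked whether the diet altered the transcripts that the egg carries. With edgeR, 0 of the 19 tested members and 0 of 9935 tested genes (0%) had an adjusted p under 0.05. At an unadjusted p under 0.05 there was 1 member, Slc2a1, against 22.3% of all tested genes. DESeq2 called 0 of the 19 members against 7.42% of the genes to which it gave an adjusted p, and limma-voom with quality weights called 0 members and 35 genes in all. The fold changes of the members were split, with 9 above 0 and 10 below, and their median log2 fold change was −0.01, against 0.04 over all tested genes, of which 51.8% were above 0. Values ranged from −0.86 for Pfkl to 0.83 for Ldhb. The HFD and CD pools did not overlap for 1 of the 19 members, against 2.44% of all tested genes.

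**Figure D2:**
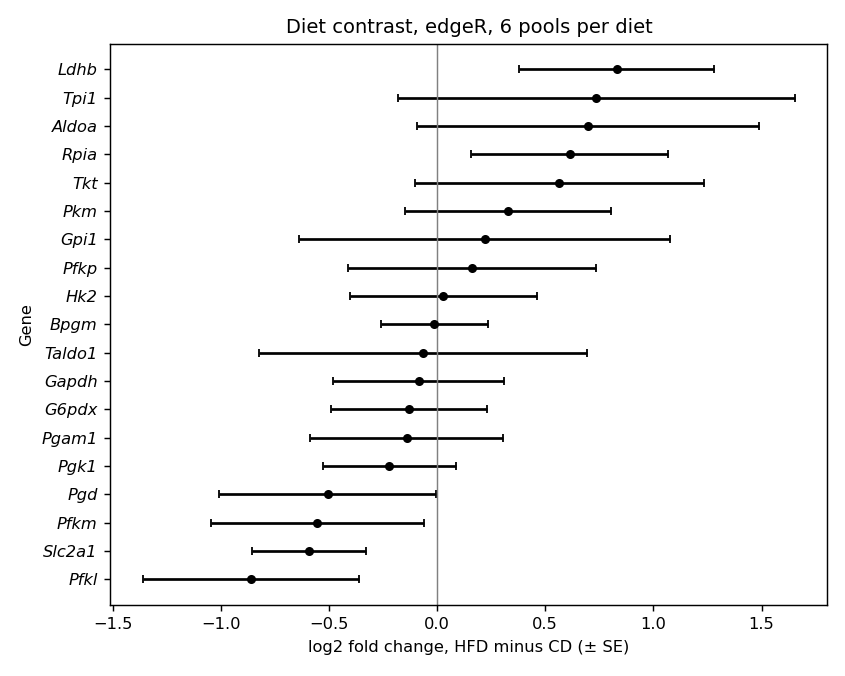
Log2 fold change of HFD minus CD (x axis) with its standard error for the 19 tested members (y axis), from edgeR on 6 pools per diet. Estimates run from −0.86 to 0.83 and no member passed the adjusted threshold.

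Among the transporters, Slc2a1 was the member in which the diets lay apart. It encodes GLUT1, the main glucose transporter of the oocyte and early embryo (chromosome 4, 119108711 to 119137983, mm10). The lowest, median and highest HFD pools held 15.1, 20.9 and 26.2 CPM of Slc2a1, and those of CD 27.2, 29.8 and 41.1 CPM. All 6 HFD pools thus lay below all 6 CD pools, on counts of 148 to 436 reads per library. The means were 21.3 ± 4.0 and 32.1 ± 5.52 CPM (SD, n = 6 per diet). The log2 fold change of −0.59 ± 0.26 (SE) did not pass (edgeR, adjusted p = 0.204). It was also the tested member with the smallest spread between pools of a diet, a standard deviation of 0.26 on the log2 scale, and 0.312% of tested genes had a smaller one. Its exons overlap those of Gm12868 on the other strand by 105 bases.

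The Slc2a1 estimate stayed between −0.66 and −0.54 when any library was left out, and its adjusted p ranged from 0.0910 (DESeq2) to 0.507 over all alternatives. The estimate was −0.36 with each library's trend with transcript length removed. Scaled by total counts alone, HFD replicate 3 at 30.0 CPM lay above CD replicate 4 at 25.6, so the diets then overlapped. Markers of cumulus and granulosa cells, which take up glucose for the oocyte, summed to between 99.3 and 1805 CPM in HFD and between 123 and 1347 CPM in CD. Serpine2 made up 94.1% of the marker sum. The other 19 markers summed to between 19.1 and 43.9 CPM in HFD and between 29.6 and 85.1 CPM in CD, with 5 of the 20 markers (Ptx3, Pgr, Amh, Amhr2 and Slc38a3) at 0 in every library. Reads aligned to more than 1 place, as a share of tallied reads, also did not overlap between the diets (26.8% to 35.7% in HFD, 18.6% to 26.5% in CD). The part of either in the Slc2a1 difference was not tested, and fewer cells of a type cannot be told apart from less RNA per cell in such pools.

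Transcripts of the other 3 transporters on the list were barely present. Slc2a3, the high-affinity neuronal transporter GLUT3, had 2 counts in 1 library, and Slc2a4, the insulin-responsive GLUT4 of muscle and fat, had 1 count in 1 library. Slc2a8, which encodes GLUT8, had 10 counts in 2 libraries, 8 of them in HFD replicate 3. A library with a count of 0 allows up to 0.243 to 0.373 CPM, by 3 counts of its scaled total and for counting error only. In the 4 libraries with even counts only, counts rise in steps of 2, so this bound may be too low there. Slc2a1 therefore made up at least 94.1% of the length-scaled counts of the 4 transporters in each HFD library and 99.5% in each CD library, with a mean difference of −1.43 percentage points (exact permutation test over all 924 assignments of the libraries, two-sided, p = 0.182; adjusted over 4 isozyme shares, 0.364). It was −0.54 without HFD replicate 3, and on a log2-ratio scale the exact p was 0.0216 (adjusted, 0.0866). Where the other 3 transporters had no count, that ratio follows the Slc2a1 count over a prior count of 0.5. The log2-ratio result thus in part restates the difference in Slc2a1 counts. Among hexose transporters outside the list, Slc2a12, Slc2a9, Slc2a10 and Slc5a2 were tested, with CD means of 2.15, 1.03, 1.20 and 1.02 CPM per kb, below the 9.86 of Slc2a1. They were named after their values were seen.

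Of the hexokinase members, Hk2 was detected in every library and Hk1 in 1. Hk2, the inducible hexokinase of muscle and growing cells, ranged from 2.16 to 5.98 CPM in HFD (median 3.71) and from 1.79 to 6.04 CPM in CD (median 3.46), with a log2 difference of 0.03 ± 0.43 (edgeR, adjusted p = 0.974). Hk1, the ubiquitous form, had 3 counts in HFD replicate 3 and 0 in the other 11 libraries. With 1 library above 0, the exact permutation test of its share can give no p other than 1.0 and says nothing about the diets. In HFD replicate 3 Hk1 made up 12% of 25 hexokinase counts (Wilson 95% interval 4.17% to 30.0%, for counting error only). No near-identical copy of Hk1 was found, but its exons overlap Hk1os on the other strand by 157 bases.

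Phosphofructokinase commits sugar to glycolysis, and all 3 of its genes were detected in every library at low levels. Pfkp, the platelet form, had medians of 8.49 CPM in HFD and 6.47 in CD (log2 fold change 0.16 ± 0.57). Pfkl, the liver form, ranged from 1.46 to 7.90 CPM in HFD (median 2.34) and from 3.45 to 10.7 CPM in CD (median 4.35). Of the HFD pools, 5 lay below all CD pools and replicate 2 lay at 7.90 CPM, so that the log2 difference was −0.86 ± 0.50 (edgeR, adjusted p = 0.322), or −1.38 without that replicate. Pfkm, the muscle form, had medians of 1.71 and 2.83 CPM (log2 fold change −0.55 ± 0.49, edgeR, adjusted p = 0.542). Exons of Pfkp overlap Pitrm1 and those of Pfkm overlap Senp1 on the other strand, and these unstranded counts cannot tell such reads apart. The same holds for Gpi1 with Gm26762 and G6pdx with Ikbkg, and Pkm overlaps Gm49759 on its own strand.

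The share of Pfkp among phosphofructokinase transcripts had a higher mean in HFD, a difference that did not pass. Pfkp made up 62.8% ± 14.6 of length-scaled phosphofructokinase counts in HFD and 46.2% ± 13.6 in CD (SD, n = 6). The difference of 16.6 percentage points had an exact permutation p of 0.0736 (two-sided, adjusted over 4 shares, 0.294). Shares ran from 39.5% to 82.0% in HFD and from 31.4% to 65.3% in CD, so the diets overlapped. The most Pfkl-rich pools were CD replicates 1 and 6, with 58.0% and 49.6%, and libraries held between 74 and 354 counts of the 3 genes together.

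**Figure D3:**
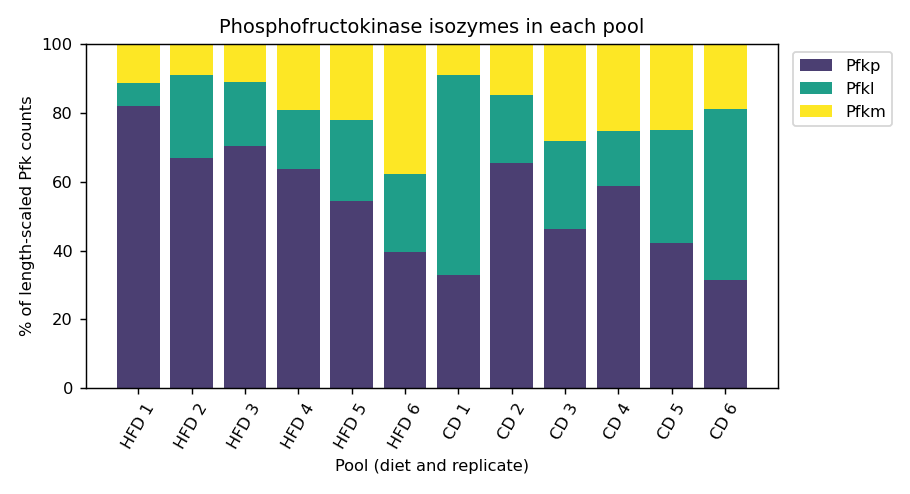
Share of each phosphofructokinase gene in the length-scaled counts of the 3 genes (y axis, percent) for the 12 pools (x axis). Pfkp takes 39.5% to 82.0% in HFD pools and 31.4% to 65.3% in CD pools.

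Of the remaining upper glycolytic genes, Gpi1, Aldoa and Tpi1 varied far more between pools than between diets. Gpi1 turns glucose 6-phosphate into fructose 6-phosphate, Aldoa is the main aldolase that splits the sugar, and Tpi1 interconverts the trioses. The highest pool exceeded the lowest by 24.5-fold for Gpi1, 30.2-fold for Aldoa and 40.5-fold for Tpi1. Diet estimates were 0.22 ± 0.86, 0.70 ± 0.79 and 0.74 ± 0.92 on the log2 scale (edgeR, adjusted p = 0.901, 0.639 and 0.673). Without HFD replicate 3, which held the most Gpi1 (28.9 CPM) and Aldoa (71.8 CPM), the estimates for these genes were −0.68 and −0.04. Aldoc, the brain aldolase, had 8 counts in 2 HFD libraries.

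In lower glycolysis, Bpgm was the abundant and even member. This enzyme is best known from red blood cells, where its product tunes oxygen release by haemoglobin (chromosome 6, 34476207 to 34505613). Bpgm held 2817, 4506 and 7079 CPM in the lowest, median and highest HFD pools and 3316, 4819 and 6095 CPM in CD. The means of 4680 ± 1409 and 4726 ± 1026 CPM (SD, n = 6) differed by −0.01 ± 0.25 on the log2 scale (edgeR, adjusted p = 0.981). The haemoglobin genes Hba-a1, Hba-a2, Hbb-bs and Hbb-bt had 0 counts in all 12 libraries, and Alas2, the haem-synthesis enzyme of red-cell precursors, had 3.

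Gapdh, Pgk1, Pgam1 and Pkm, which take the trioses to pyruvate, were detected in every library. Pgk1 had medians of 10.3 CPM in HFD and 10.5 in CD (log2 fold change −0.22 ± 0.31), and Pgam1 had 2.70 and 2.94 (−0.14 ± 0.45). Pkm, pyruvate kinase, ranged from 8.37 to 51.7 CPM in HFD and from 12.7 to 36.4 CPM in CD (0.33 ± 0.48, or −0.02 without HFD replicate 3). Gapdh ranged from 16.8 to 60.6 CPM in HFD and from 16.9 to 44.1 CPM in CD (−0.09 ± 0.40). Its adjusted p was 0.919, and those of Pgk1, Pgam1 and Pkm were 0.707, 0.880 and 0.719 (edgeR). HFD replicate 1 held the most Gapdh, and without it the estimate was −0.49.

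Several low values in this stretch have copies that could share reads. Gapdh matched 71 other GENCODE genes at 95% identity or more over at least 50% of its transcript, 68 of them pseudogenes. Eno1, the ubiquitous enolase, had 22 counts over 5 libraries, and it matched 3 other genes, among them Eno1b with 82 counts. Pgk1 and Ldha matched 2 pseudogenes each, and Gpi1, Pkm and Ldhb 1 each. Reads aligned to more than 1 place made up 26.8% to 35.7% of tallied reads in HFD libraries and 18.6% to 26.5% in CD libraries, and such reads were not given to a gene, so the true levels of Gapdh and Eno1 are uncertain. Pgam2 and Eno3, muscle forms, had 0 counts in all 12 libraries.

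Ldhb had the highest mean level per length and the highest diet estimate of the members, although per length Bpgm exceeded it in 4 of 6 CD pools and 1 of 6 HFD pools. Ldhb (chromosome 6, 142490249 to 142507957) held 2694, 7956 and 10068 CPM in the lowest, median and highest HFD pools and 1582, 2611 and 8349 CPM in CD. Of the 6 HFD pools, 5 lay above the CD mean and 3 above all CD pools, while CD replicates 2 and 4 at 7212 and 8349 CPM reached well into the HFD range. The means were 7119 ± 2657 and 4015 ± 2978 CPM (SD, n = 6). The resulting log2 difference of 0.83 ± 0.45 did not pass (edgeR, adjusted p = 0.288). Leaving out any library gave estimates from 0.63 to 1.17, and removing the trend with length gave 0.44.

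Ldha, the muscle-type subunit, was nearly absent beside it. Its 141 counts lay in 8 libraries, 85 of them in CD replicate 1 and 28 in HFD replicate 1. The cumulus markers other than Serpine2 summed to 85.1 CPM in the former, the highest of all libraries, and to 28.5 CPM in the latter, and their part in the Ldha counts was not tested. Ldhb made up at least 99.6% of length-scaled lactate dehydrogenase counts in each CD library and 99.98% in each HFD library. The difference of 0.06 percentage points did not pass (exact permutation test, two-sided, p = 0.379; adjusted over 4 shares, 0.505), and it was 0.0019 without CD replicate 1. In CD replicate 1 the Ldhb share of counts was 99.56%, with a Wilson 95% interval from 99.45% to 99.64% for counting error only.

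In the oxidative arm of the pentose phosphate pathway, G6pdx, glucose-6-phosphate dehydrogenase and the source of NADPH, was the main transcript. It held 56.4, 118 and 251 CPM in the lowest, median and highest HFD pools and 83.5, 153 and 197 CPM in CD, and the log2 difference was −0.13 ± 0.36 (edgeR, adjusted p = 0.864). Pgd, the other NADPH-producing dehydrogenase, was far lower, with medians of 2.79 and 4.01 CPM (−0.51 ± 0.50, adjusted p = 0.587). Pgls, the lactonase between them, had 109 counts in 6 libraries, 80 of them in HFD replicate 3, and its exons overlap Fam129c on the same strand.

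In the non-oxidative arm, which turns pentoses back into glycolytic sugars, Taldo1 was abundant and split the pools into high and low ones. Taldo1 (chromosome 7, 141392199 to 141402968) stood at 207, 239 and 262 CPM in HFD replicates 6, 5 and 4 and at 187 to 229 CPM in CD replicates 1, 3, 5 and 6. It stood at 17.1, 22.8 and 72 CPM in HFD replicates 2, 1 and 3 and at 13.9 and 20.5 CPM in CD replicates 2 and 4. The split thus ran through both diets, and the means of 137 ± 112 and 143 ± 98.9 CPM (SD, n = 6) differed by −0.07 ± 0.76 on the log2 scale (edgeR, adjusted p = 0.969). Tkt, transketolase, had medians of 2.11 and 1.64 CPM (0.57 ± 0.67, or 0.09 without HFD replicate 3), and Rpia, which makes ribose 5-phosphate, 5.24 and 3.99 CPM (0.61 ± 0.46). Neither passed (edgeR, adjusted p = 0.652 and 0.448).

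The pools low in Taldo1 were the same pools for several glycolytic members, a pattern noticed in these values and given here without a test. In HFD replicates 1, 2 and 3 and CD replicates 2 and 4, each of Gpi1, Pfkp, Aldoa, Tpi1 and Pkm was higher than in any of the other 7 pools, and each of Bpgm and Taldo1 was lower. That makes 5 of 19 tested members on the high side and 2 of 19, Taldo1 included, on the low side, counts that in part restate how the pools were picked. Over all tested genes, 7.39% were higher and 5.05% lower in these 5 pools than in any other. Tpi1, for example, held 17.8 to 44.6 CPM in the 5 pools and 1.10 to 13.1 CPM in the others, with CD replicate 1 the highest of the others. Bpgm held 2817 to 4300 CPM in the 5 pools and 4712 to 7079 CPM in the others.

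Ldhb followed this pattern only in part. It was at 7212 to 10068 CPM in the 5 pools, and in the other 7 it was at 2694, 5460 and 8558 CPM in HFD replicates 4, 6 and 5 and at 1582 to 2956 CPM in CD. Slc2a1 did not follow it, with 19.7 to 30.5 CPM in the 5 pools and 15.1 to 41.1 CPM in the other 7. Its HFD values were 26.2, 19.7 and 24.8 CPM in replicates 1, 2 and 3. HFD replicates 4, 5 and 6 held 19.8, 15.1 and 22.0 CPM of Slc2a1. In CD it was at 30.5 and 27.2 CPM in replicates 2 and 4 and at 28.2 to 41.1 CPM in the others. Mos, the kinase that holds the egg in metaphase arrest, was at 3.84 to 9.38 CPM in 4 of the 5 pools but at 756 CPM in HFD replicate 3, against 146 to 1699 CPM in the other 7. Taken as whole lists, the cumulus and the stromal and endothelial marker sums did not overlap between the 5 pools and the others. The oviduct and the blood and immune marker sums overlapped. Oviduct markers summed to 7.53 to 54.9 CPM in the 5 pools and 41.9 to 216 CPM in the others. Blood and immune markers summed to 2.75 to 9.37 CPM in the 5 pools and 2.18 to 6.76 CPM in the others. The cumulus sum, led by Serpine2, was 99.3 to 321 CPM in the 5 pools and 731 to 1805 in the others. The stromal and endothelial sum, 78.2% Pecam1 with Cdh5 at 0, was 5.70 to 13.9 against 23.5 to 161 CPM. Without Serpine2 the cumulus sums overlapped, at 19.1 to 46.0 CPM in the 5 pools and 40.9 to 85.1 CPM in the others. Without Pecam1 the stromal and endothelial sums overlapped too, at 2.57 to 6.81 against 4.33 to 18.3 CPM. Oocyte markers without Dppa3 were lower in 4 of the 5 pools, as given above. The part of these in the members' differences was not tested.

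**Figure D4:**
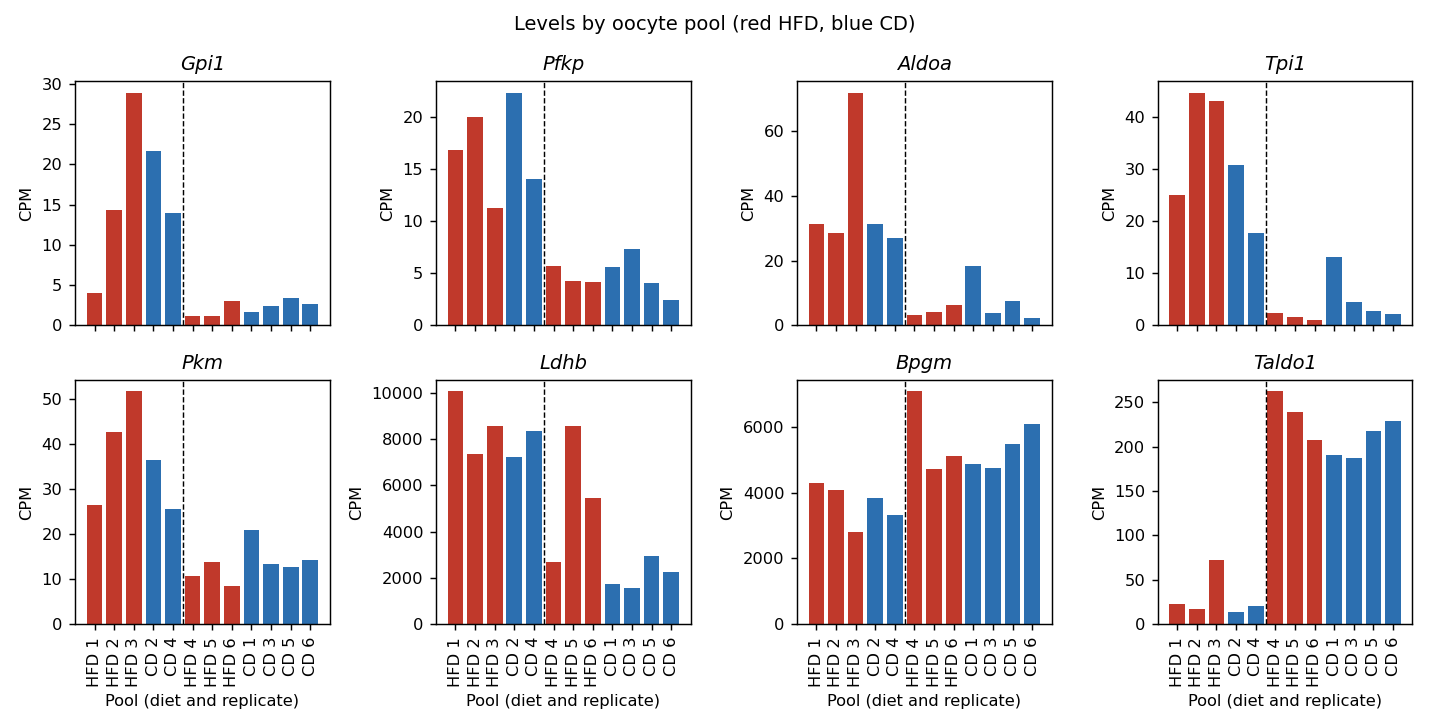
CPM (y axes, linear from 0) of 8 members in each pool (x axis, red HFD, blue CD), with HFD replicates 1 to 3 and CD replicates 2 and 4 left of the dashed line. Gpi1, Pfkp, Aldoa, Tpi1 and Pkm are higher and Bpgm and Taldo1 lower left of the line in both diets.

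The spread between pools of a diet set what the comparison could show for each member. On the log2 scale its standard deviation was 2.05 for Tpi1, 1.82 for Taldo1, 1.67 for Aldoa and 1.67 for Gpi1, each larger than in at least 90.9% of tested genes. It was 0.33 for Pgk1 and 0.38 for Bpgm, and 1.86% and 4.58% of tested genes had a smaller value. The median over the tested members was 0.74, against 0.78 over all tested genes.

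The rest of the pathway was read from 66 further genes, of which 36 were tested and 10 had no count in any library. With edgeR, 0 of the 36 passed, 8 had an unadjusted p under 0.05 (22.3% of all tested genes had), and 15 were above and 21 below 0, with a median log2 fold change of −0.38. Of those with estimates above 0, the smallest p belonged to Gckr (1.23 ± 0.41) and to Mpc1 (0.90 ± 0.30) and Mpc2 (1.80 ± 0.70), the subunits of the mitochondrial pyruvate carrier (edgeR, adjusted p = 0.116, 0.116 and 0.159). Gckr held 231 CPM in HFD replicate 3, 52.4 to 127 CPM in the other HFD pools and 21 to 71.5 CPM in CD. Mpc1 held 71.0 to 199 CPM in HFD and 36.7 to 95.3 CPM in CD, with 5 of 6 HFD pools above all CD pools. Mpc2 rested in part on HFD replicate 3, at 75.7 CPM against 3.07 to 23.1 CPM in the other HFD pools.

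On the low side were Ogt (−1.20 ± 0.43), which attaches GlcNAc to proteins, Hif1a (−1.19 ± 0.43), the hypoxia-inducible activator of glycolytic genes, and Pfkfb2 (−1.0 ± 0.41), which sets the level of fructose 2,6-bisphosphate (edgeR, adjusted p = 0.129, 0.135 and 0.173). In each of these genes 0 of 6 HFD pools lay above the CD mean, and the diets overlapped. CD replicate 3 was the highest CD pool of all 3, at 129 CPM for Ogt, 541 for Hif1a and 15.4 for Pfkfb2. Prps2, which makes phosphoribosyl pyrophosphate from ribose 5-phosphate, did not pass edgeR's filter on low counts, but DESeq2 called it lower (log2 fold change −4.34, adjusted p = 0.000954). It held 0 to 1.28 CPM in HFD and 0.480 to 46.9 CPM in CD, where replicates 2 and 5 lay within the HFD range.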

How the data were processed

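Reads of 12 oocyte pools, 6 per diet, were counted per gene symbol by the authors, and the deposited values are whole-number counts that were not normalised. The build mm10 and the tools STAR, HTSeq 1.0.0 and DESeq2 1.0.19 are listed in the submitters' processing notes. Which STAR version, gene annotation and counter settings were used is not given in the sources used here. Per the labels' protocols, cDNA was made with SMART-Seq v4 and libraries with Nextera XT, a chemistry that does not mark strand. The table's 5 lines of unassigned reads, 62.3% to 72.9% of tallied reads per library, were left out. The members and gene lists were chosen with earlier results of these data known.

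HFD was compared with CD in edgeR 4.0.16 (R 4.3.3) by the quasi-likelihood F-test (robust), after TMM scaling and filterByExpr at its defaults, with Benjamini-Hochberg adjustment over 9935 genes and a threshold of 0.05. A standard error is the fold change divided by the root of its F value, and CPM used total gene counts times TMM factors. On simulated counts for these 9935 genes, 61% of genes changed 4-fold and 98% of those changed 16-fold were recovered. The changed genes were drawn only from those above a floor on mean CPM. The recovery therefore does not cover low members such as Hk2, Pfkl, Pfkm, Pgam1, Pgd, Tkt and Rpia. No change under 4-fold was simulated, so it also does not cover changes of the size estimated for the members (log2 −0.86 to 0.83). DESeq2 1.42.0 and limma 3.58.1 were alternatives, beside other scalings and filters, halving the all-even libraries, and leaving out each library. Isozyme shares used counts divided by the median length of GENCODE M21 basic transcripts and an exact permutation test over libraries whose smallest p is 0.00216. Of the symbols, 22750 matched GENCODE. Copies were searched with BLAST 2.17.0. Promoter sequences are from RefSeq (GRCm38.p6). All 29 members are named. Of the other pathway genes, the 3 with the smallest p in each direction are named, Prps2 because DESeq2 called it, and any other was chosen after its values were seen.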

Additional observations from a re-analysis of the deposited data

Results flagged for a closer look

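In 38 groups of 6 pools (19 members in 2 diets), 2 held a pool that lay far from the other 5 of its diet by Dixon's criterion, where chance gives about 1 group in 20. Pfkl stood at 7.90 CPM in HFD replicate 2, against 1.46 to 3.24 CPM in the other HFD pools. Gapdh stood at 60.6 CPM in HFD replicate 1, against 16.8 to 24.9 CPM in the other HFD pools.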

How the results depend on the processing

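No member was called under any of the 22 alternatives. Over all genes, DESeq2 called 709, limma-voom with quality weights 35 and the 8 libraries with odd counts 456, against 0 with edgeR on all libraries. The cause was not tested. Those 8 libraries were HFD replicates 3 and 5 and CD replicates 1 to 6, and all-even counts occurred only in HFD. Of the other pathway genes, DESeq2 called 1 (Prps2), the libraries with odd counts 1 (Mpc2) and edgeR 0. Same-numbered libraries had correlations of −0.23, 0.55, −0.14, −0.45, 0.18 and 0.27 and correlated best with their own number in 2 of 6 cases, so the numbers were not taken as pairs. With the replicate block, 0 genes were called, the Gpi1 estimate was −0.10, and the Pfkp share had an exact p of 0.0312 (adjusted, 0.125). That p is the smallest the blocked test can give, since the Pfkp share was higher in HFD in every same-numbered pair. It therefore does not grade the size of the difference. The sign of the log2 fold change held in every alternative for 9 of 19 members (Ldhb, Pfkl, Pfkm, Pgam1, Pgd, Pgk1, Rpia, Slc2a1 and Tkt) and turned in 46 of 418 member values. Hk2 was −0.12 on total counts, −0.011 without the filter and −0.10 in libraries with odd counts, where Pfkp was −0.33, G6pdx 0.15 and Taldo1 0.093. With limma-voom, Gpi1 was −0.47, Tpi1 −0.30, Pkm −0.10 and Bpgm 0.0047, and with the length trend removed Bpgm was 0.012. Leaving out each library gave ranges of −0.040 to 1.04 for Aldoa, −0.17 to 0.087 for Bpgm, −0.41 to 0.022 for G6pdx, −0.49 to 0.072 for Gapdh, −0.68 to 0.88 for Gpi1, −0.14 to 0.20 for Hk2, −0.14 to 0.63 for Pfkp, −0.015 to 0.57 for Pkm and −0.36 to 0.17 for Taldo1. Low levels and the spread between pools limit what can be seen: the 10 untested members had 0 to 141 counts each over 12 libraries.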

Other observations

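Adpgk, a kinase that phosphorylates glucose with ADP in place of ATP, had a far higher mean level than Hk1 and Hk2. It was picked out after its values were seen. Its CD mean was 62.4 ± 70.7 CPM per kb (SD, n = 6), against 0.93 ± 0.38 for Hk2. In HFD the means were 16.9 ± 12.9 for Adpgk and 0.95 ± 0.37 for Hk2. On the CPM scale the gap was narrow in HFD replicate 1, with 7.44 CPM of Adpgk and 5.98 CPM of Hk2. These values are not scaled by length and so cannot be set beside the means per kb. Adpgk held 7.44 to 77.7 CPM in HFD and 15.2 to 492 CPM in CD. The log2 difference of −1.88 ± 0.80 did not pass (edgeR, adjusted p = 0.189). CD replicate 3 was the highest at 492 CPM, and the 5 pools low in Taldo1 held 7.44 to 21.6 CPM of Adpgk, against 63.2 CPM or more in the other 7.

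Tktl2, a transketolase-like gene known from testis, stood at 4.41 ± 4.06 CPM per kb in CD (SD, n = 6), against 0.51 ± 0.33 for Tkt. In HFD the means were 1.65 ± 1.24 for Tktl2 and 0.75 ± 0.57 for Tkt. Tktl2 held 0.97 to 13.5 CPM in HFD and 5.08 to 45.1 CPM in CD. Its log2 difference of −1.41 ± 0.64 did not pass (edgeR, adjusted p = 0.214).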
